A study of Mus musculus with 44 samples.

Results

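The germinal-centre-like lymphomas are 7 of the 43 Eµ-myc lymphomas in this series, which holds 44 arrays in all. They were selected on the arrays themselves, as the lymphomas whose mean log2 level of Bcl6, Gcsam, Mef2b and Lmo2, after the mean of the array set was subtracted, lay above 1. In Eµ-myc mice a Myc transgene is driven by the immunoglobulin heavy chain enhancer, so that B lineage cells carry the oncogene, and every array here, the compared group included, came from such a mouse. RNA was taken from lymphoma tissue or from pelleted cells, with no sorting step stated, and hybridised to an Affymetrix mouse expression array. The labels name no treatment, age or sex, and do not say which lymphoma was frozen as tissue and which as cells.

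The comparison group was the other 36 lymphomas, and the remaining array was a spleen of an Eµ-myc mouse. Titles up to D117 and those above it fell into 2 array sets of different overall level, with array medians of 6.22 to 6.46 and of 6.86 to 6.96 on the log2 scale. Set 1 held 6 germinal-centre-like and 30 other lymphomas. Set 2 held 1 germinal-centre-like lymphoma, D163, and 6 others. The set was therefore a term in every test, except in an alternative named as without it, and a range over all members takes in both sets. Each array is 1 lymphoma by its title, and no label says more about the animals, so p-values measure only the spread between these arrays.

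In the germinal centre, B cells that have met antigen divide, mutate their immunoglobulin genes and are selected with help from follicular T cells. BCL6 is the transcriptional repressor that directs this state, and in doing so it holds down plasma cell, activation and cell cycle arrest genes. MEF2B is a transcription factor that binds the Bcl6 gene, LMO2 is a bridging protein of transcription factor complexes, and GCSAM is an adaptor that restrains movement of germinal centre B cells. Eµ-myc tumours are usually described as arising from precursor or immature B cells, before antigen.

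The 4 genes that chose the lymphomas are described here without a test. Bcl6 was at 8.18, 10.19, 10.03, 10.34, 9.38 and 9.82 in lymphomas D46, D53, D75, D78, D88 and D117, and at 9.93 in lymphoma D163. In the others it lay between 4.68 and 7.50 in set 1 and between 6.05 and 7.69 in set 2, so the groups did not overlap. Mef2b did not overlap either, with 8.18 to 9.39 in the 6 lymphomas of set 1, 9.30 in lymphoma D163, and at most 7.60 in any other. Gcsam was at 5.86 in lymphoma D46 and at 7.85 to 9.71 in the other members, and 2 other lymphomas of set 1 exceeded lymphoma D46. Lmo2 was the least separated, at 10.39 to 11.09 among members, with a median of 8.85 but a highest value of 11.11 in the other lymphomas of set 1. The mean of the 4 genes was lowest in lymphoma D46, at 1.73, and lay between 2.95 and 3.41 in the other members. The nearest lymphomas below the threshold were D83 at 0.50 and D55 at 0.42.

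**Figure D1:**
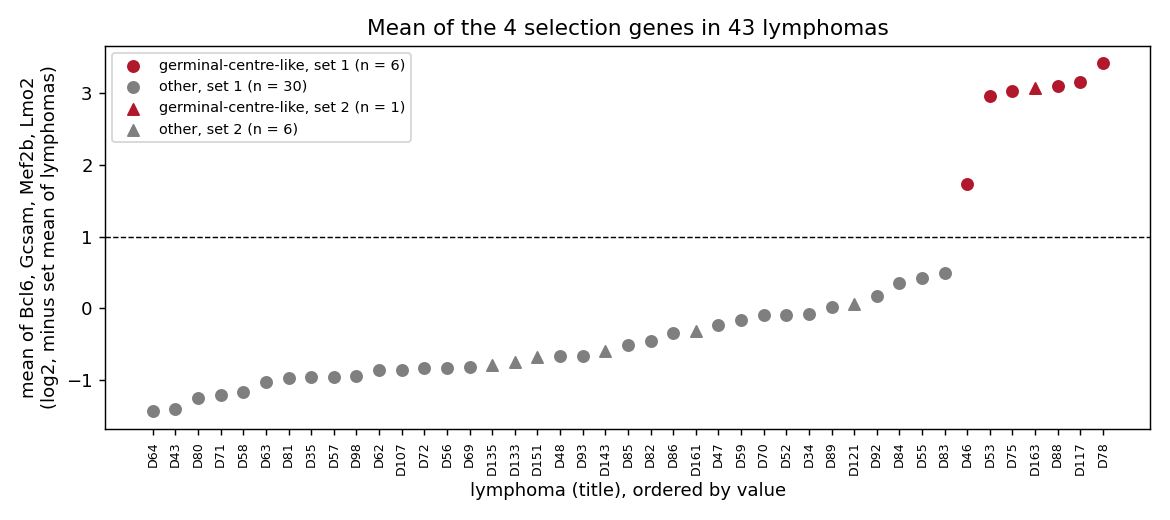
Mean log2 level of Bcl6, Gcsam, Mef2b and Lmo2 in each of the 43 lymphomas, minus the mean of its array set, ordered from low to high, with the dashed line at the threshold of 1. The 7 germinal-centre-like lymphomas lie between 1.73 and 3.41, and the highest other lymphoma is at 0.50. These values chose the groups and are shown as a description.

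The promoter windows of the genes that differed most are shown because BCL6 and MYC each have a short DNA motif. BCL6 zinc fingers recognise a sequence that contains TTCNNNGAA, a core they share with STAT factors, and MYC with its partner MAX binds CACGTG. Both motifs read the same on either strand, and no match to one overlaps a match to the other in the windows printed. Windows of 300 bases, from 250 before to 50 after the start, came from RefSeq on GRCm38.p6, and 17 of the 20 genes with the highest differences and 3 of the 4 selection genes had one. TTCNNNGAA was present in 8.30% of all 32851 windows and in at least 1 window of 9.55% of all 27025 genes. Among the 17 highest genes 1 held it, and among the 3 selection genes 1 did. The windows with a TTCNNNGAA match are those of Bcl6 (chr16:23988803-23989102 and chr16:23981234-23981533, both on the minus strand) and Zbtb20 (chr16:43247034-43247333, plus strand), printed with the matches to either motif in capitals.
Bcl6, first start: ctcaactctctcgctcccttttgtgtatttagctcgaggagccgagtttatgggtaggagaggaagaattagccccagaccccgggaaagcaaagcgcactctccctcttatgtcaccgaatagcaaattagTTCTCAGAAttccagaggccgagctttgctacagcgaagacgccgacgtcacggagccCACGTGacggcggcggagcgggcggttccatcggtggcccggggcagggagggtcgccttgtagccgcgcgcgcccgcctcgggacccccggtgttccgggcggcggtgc
Bcl6, second start: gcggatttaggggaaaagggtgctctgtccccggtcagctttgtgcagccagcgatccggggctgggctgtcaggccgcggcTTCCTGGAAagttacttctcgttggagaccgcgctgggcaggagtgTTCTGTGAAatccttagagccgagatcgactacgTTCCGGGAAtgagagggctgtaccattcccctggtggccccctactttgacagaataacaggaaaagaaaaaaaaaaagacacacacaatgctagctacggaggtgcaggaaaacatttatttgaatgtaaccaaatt
Zbtb20: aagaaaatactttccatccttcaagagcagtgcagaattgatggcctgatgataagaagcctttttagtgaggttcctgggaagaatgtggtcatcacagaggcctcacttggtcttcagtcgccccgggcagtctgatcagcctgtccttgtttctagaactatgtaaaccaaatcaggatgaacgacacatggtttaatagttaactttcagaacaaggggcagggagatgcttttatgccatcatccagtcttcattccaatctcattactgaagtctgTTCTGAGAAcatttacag

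The second Bcl6 window held 3 matches to TTCNNNGAA, and the first held 1 together with 1 CACGTG. Zbtb20, which encodes a zinc-finger repressor related to BCL6, held 1 match. CACGTG was present in 7.15% of all windows and in at least 1 window of 8.09% of all genes. Of the 17 highest genes 1 held it, Slpi. Basp1, Rnf128 and Cr2, whose levels did not overlap between the groups, had neither motif in their windows. A match describes letters in the sequence and not a bound site.

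Outside the 4 selection genes, 8637 genes were tested between the groups with limma, with the array set in the fit. At a Benjamini-Hochberg adjusted p under 0.05, 1180 genes (13.7%) were higher in the germinal-centre-like lymphomas and 1818 (21.0%) were lower. Differences of at least 1 on the log2 scale, or 2-fold, were more often upward, with 469 genes (5.43%) higher and 1.66% of all genes lower. The groups were formed from the same arrays by the 4-gene mean. An adjusted p here says that a gene differs between the groups so formed, and it is no independent test of the grouping. The levels of the 7 members lay above every other lymphoma of their own set for 28 genes (0.324%) and below every other for 10 (0.116%). Of the 28, 6 had entered the test through the members alone, since every other lymphoma was below the median of its array set.

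Basp1, which encodes a membrane-associated protein that also acts in the nucleus, had the largest difference. Its log2 level was 11.27, 11.60, 11.69, 11.94, 11.86 and 11.83 in lymphomas D46, D53, D75, D78, D88 and D117, and 12.29 in lymphoma D163. The others of set 1 ran from 4.46 to 9.94 with a median of 6.24, and those of set 2 from 5.77 to 8.74. All 7 members were above all others, and they were close to one another, with an SD of 0.24 in set 1 against 1.45 among the others. The difference was 5.32 (SE 0.517, adjusted p = 1.49e-10), or 39.8-fold.

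Rnf128, an E3 ubiquitin ligase also called GRAIL and known from T cell anergy, was at 7.41, 9.97, 9.92, 9.48, 8.61 and 8.07 in the members of set 1 and at 9.67 in lymphoma D163. No other lymphoma exceeded 6.58. The difference was 4.72 (SE 0.293, adjusted p = 3.93e-16), or 26.3-fold. Cr2, complement receptor 2 or CD21, which binds antigen coated with complement and marks mature follicular and marginal zone B cells and follicular dendritic cells, was at 8.15, 8.59, 9.99, 11.02, 8.23 and 8.52, and at 8.67 in lymphoma D163. The others lay between 4.21 and 6.16. All of these others were below the median of their array set, so Cr2 entered the test through the members alone. It had the smallest adjusted p of the named genes, at 6.77e-18, with a difference of 4.11 (SE 0.225).

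**Figure D2:**
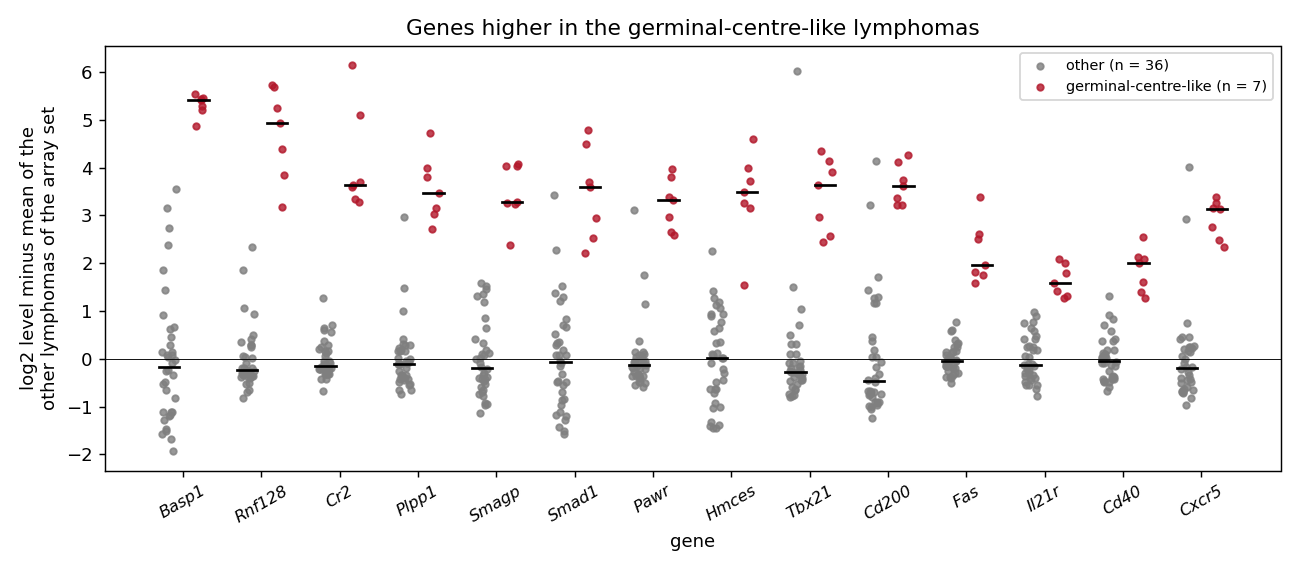
Log2 level of 14 genes in each lymphoma minus the mean of the other lymphomas of the same array set; red points are the 7 germinal-centre-like lymphomas, grey points the 36 others, and bars mark medians. Basp1, Rnf128, Cr2, Smagp, Fas and Il21r show no overlap within a set, while Tbx21, Cd200, Cxcr5 and Smad1 each have 1 or 2 other lymphomas at the members' level.

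Germinal centre genes that the rule did not use are described next. Their list was chosen with earlier results of these data known, so it is no independent check of the label. Basp1, Smad1 and Cd83, described in other paragraphs, are among its higher genes. Of the 9 tested genes of a list of 21 that are high in germinal centre B cells, 7 were higher and none was lower. Over all genes 13.7% were higher and 21.0% lower. The median difference of the list was 1.65, against -0.06 over all genes. Fas entered the test through the members alone; without it, 6 of 8 were higher. Fas, the death receptor that marks germinal centre B cells, was at 5.64 to 7.44 in the members and at most at 4.82 in the others of set 1 (difference 2.23, SE 0.159, adjusted p = 3.26e-14). Il21r, the receptor for the T cell cytokine IL-21, was at 7.68 to 8.50 in the members of set 1 and 8.97 in lymphoma D163, and did not overlap with the others, which reached 7.38 and 7.37 in the 2 sets (difference 1.65, adjusted p = 4.71e-09). Gna13, the G protein subunit that confines germinal centre B cells, differed by 1.08 (SE 0.110, adjusted p = 4.66e-10), and Efnb1, an ephrin ligand of germinal centre B cells, by 1.47. Pou2af1, the B cell coactivator OBF-1, differed by 0.58 (SE 0.57, adjusted p = 0.454) and Plxnb2, a semaphorin receptor, by 0.50 (adjusted p = 0.083), neither past the threshold. The list's other 12 genes were not tested: 5 were dim, below the median of the array set in every lymphoma, and 7, S1pr2 among them, were not analysed here.

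Mybl1, a MYB family factor of germinal centre B cells, was one of the dim genes and is named after its values were seen. It was at 4.43, 5.80, 6.06, 6.01, 3.88 and 5.21 in the members of set 1, against 3.28 to 4.0 in the others, and at 5.57 in lymphoma D163 against at most 4.75. Lymphoma D88 alone lay inside the range of the others.

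Genes that are usually low in germinal centre B cells did not follow 1 direction. Of 8 tested, Cd55, a complement regulator, and Ccr7, the receptor that draws B cells to the T cell zone, were lower, with differences of -1.79 and -1.11. Cr2 and Ccr6, a chemokine receptor of naive and memory B cells, were higher, by 4.11 and 1.24. S1pr1, the receptor that lets lymphocytes leave tissue, differed by -0.19 (adjusted p = 0.656) and Klf2, its transcriptional activator, by -0.59 (adjusted p = 0.222). Cr2 entered the test through the members alone and Cd55 through the others alone. Among the 6 genes above the median of a set in both groups, 1 was higher and 1 lower. Over all genes tested 13.7% were higher and 21.0% lower. Fcer2a, or CD23, another follicular B cell receptor named after its values were seen, was dim and not tested. It was at 5.41 to 6.23 in the members of set 1 and at 4.88 to 5.37 in the others, without overlap.

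Genes of mature B cells were higher for 7 of 13 tested, beside 13.7% of all genes, and lower for none. Their median difference was 1.16. Cxcr5, the receptor that leads B cells into the follicle, was at 7.82, 8.62, 8.74, 8.63, 8.24 and 8.86 in set 1 and at 8.90 in lymphoma D163. The median of the others was 5.11 in set 1, although 2 of them stood above lymphoma D46. Cd40, the receptor for T cell help, was at 7.90 to 8.74 in the members of set 1 and 9.10 in lymphoma D163, and differed by 1.87 (SE 0.187, adjusted p = 3.24e-10). Tnfrsf13c, the survival receptor for BAFF, differed by 1.80, and Ms4a1, or CD20, by 2.30 (adjusted p = 0.00858). Over the pan B cell list 2 of 9 genes were higher, beside 13.7% of all genes. The mean of that list ran from 0.08 to 0.66 in the members and from -2.83 to 0.79 in the others. Cd79a, the signalling chain of the B cell receptor, was at 10.18 to 10.72 in the members against a median of 11.47 in the others of set 1 (difference -0.83, adjusted p = 0.113).

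Cd200, an inhibitory ligand, was at 7.42 to 8.46 in the members, with 2 others of set 1 above the lowest member (difference 3.65, adjusted p = 7.78e-08). Tnfsf9, the ligand of 4-1BB, Slamf1, an adhesion receptor of lymphocytes, Dusp10, a phosphatase of stress kinases, Itpkb, an inositol phosphate kinase, and Map2k1, the kinase MEK1, were higher by 1.76, 1.18, 1.93, 1.30 and 0.87. Ptprc, the lymphocyte phosphatase CD45, was at 12.65 to 13.11 in the members of set 1 and 10.77 to 12.54 in the others, and Laptm5, a lysosomal protein that lowers receptor levels, differed by 2.04. These 7 genes are among the 28 without overlap and are named after their values were seen. Of 21 tested genes of B cell receptor signalling, 7 were higher and 2 lower, beside 13.7% of all genes higher and 21.0% lower. Grb2, an adaptor, was 0.82 higher and Plcg2, the phospholipase of the pathway, 0.50 higher.

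NF-kB and activation genes were higher for 11 of 13 tested, beside 13.7% of all genes, with a median difference of 0.71. Their list mean ran from 0.01 to 1.22 in the members and from -0.77 to 1.53 in the others. Traf1, an adaptor of TNF receptors and a target of NF-kB, was at 5.51 in lymphoma D75 and at 6.36 to 7.32 in the other members, and differed by 1.93 (adjusted p = 1.03e-08). It entered the test through the members alone. Relb, the subunit of the alternative pathway, was 1.72 higher and Icam1, an adhesion molecule, 1.26 higher. Cd83, an activation marker of light zone B cells and dendritic cells, was at 9.55, 9.73, 5.10, 9.42, 10.63 and 10.68 in set 1, and 11.33 in lymphoma D163. Lymphoma D75 stood with the others of set 1, whose median was 5.41. MHC class II genes were higher for all 8 tested, with a median difference of 1.64: Ciita, their master regulator, was at 7.78 to 8.82 in the members of set 1 against a median of 6.93, and H2-DMa, a peptide-loading chaperone, differed by 1.96. The MHC class II mean ran from 0.81 to 1.83 in the members and from -2.58 to 1.47 in the others. When the means of the T cell and macrophage lists were added to the fit, 3 of 13 NF-kB genes were higher and 1 lower. Of the 8 MHC class II genes, 1 was then higher and none lower. Over all genes, 6.17% were higher and 6.33% lower in that fit.

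Of 21 tested transcription factors of the B lineage, 5 were higher and 4 lower, beside 13.7% of all genes higher and 21.0% lower. Foxp1, which is repressed as B cells enter the germinal centre, was at 10.11, 10.28, 8.47, 8.92, 8.20 and 9.15 in the members of set 1 and at 9.27 in lymphoma D163. The others had medians of 11.24 and 11.77 in the 2 sets, and 3 of set 1 reached below the highest member. The difference was -2.04 (SE 0.203, adjusted p = 2.46e-10). Mef2c, a close relative of Mef2b that acts in B cell activation, was 1.47 higher (adjusted p = 1.92e-06), whereas Mef2d, another member of the family, was lower (difference -0.96, adjusted p = 3.41e-05). Pax5, the factor of B cell identity, differed by -0.03 (adjusted p = 0.941).

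Tbx21, or T-bet, a factor of Th1 and NK cells that also marks a subset of memory and age-associated B cells, was at 8.06, 7.40, 8.35, 8.58, 6.88 and 8.78 in set 1, and 7.28 in lymphoma D163. A single other lymphoma, at 10.46, exceeded the members, and the median of set 1 was 4.12. The difference was 3.43 (SE 0.446, adjusted p = 1.27e-07). Itgax, or CD11c, which is carried with T-bet by that subset and by dendritic cells, ran from 6.10 to 8.55 in the members of set 1 against a median of 6.17, and 16 others of set 1 exceeded the lowest member. In lymphoma D163 it was at 8.98, against a median of 6.65. In lymphoma D75 Tbx21 was at 8.35 while Itgax was at 6.10.

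BMP and TGF-beta genes were higher for 6 of 14 tested and lower for 1, or for 2 without D46. Over all genes tested, 13.7% were higher and 21.0% lower, so the share lower in this list is below that of all genes. Smad1, the transcription factor activated by BMP receptors, was at 8.63, 9.70, 10.89, 9.79, 9.05 and 10.60 in set 1 and at 8.61 in lymphoma D163. The medians of the others were 6.12 and 5.89, with 1 other lymphoma above lymphoma D46 (difference 3.46, SE 0.440, adjusted p = 7.58e-08). Bambi, a decoy receptor that blocks this pathway, was lower (difference -1.39, SE 0.241, adjusted p = 2.16e-05). It entered the test through the others alone, and none of the 12 genes above the median of a set in both groups was lower. Skil, an inhibitor of SMAD-dependent transcription, was 0.98 higher.

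Other genes among the 20 highest have varied roles. Hmces, which shields abasic sites in DNA, was at 8.67 in lymphoma D46 and 10.29 to 11.74 in the other members, and differed by 3.39 (adjusted p = 6.01e-09). It was the single higher gene among 14 tested for somatic mutation and DNA repair, beside 13.7% of all genes higher and 21.0% lower. In that list 4 were lower, among them Xrcc6, the end-joining protein Ku70 (difference -1.16), and Ung, a uracil glycosylase of base excision repair (difference -0.43, adjusted p = 0.013, a call lost without D88 or D163). Without lymphoma D88 the number lower was 1, and without lymphoma D163 it was 2. Of the 14, 3 were higher and none lower with the T cell and macrophage means in the fit, and Ung differed by -0.008 (adjusted p = 0.979). Over all genes, 6.17% were higher and 6.33% lower in that fit. Slc41a2, a magnesium transporter, Plpp1, a lipid phosphatase, Smagp, a small membrane glycoprotein, Pawr, a pro-apoptotic factor, and Gng12, a G protein gamma subunit, were higher by 3.97, 3.55, 3.47, 3.24 and 3.10. Of the dimmer probe sets of Plpp1, the brighter differed by 3.16 (adjusted p = 1.98e-12) and the dimmest by -0.09 (adjusted p = 0.315).

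Plasma cell and secretion genes were higher for 10 of 13 tested, beside 13.7% of all genes, and lower for none. Their median difference was 1.51. Xbp1, the factor of the secretory programme, was at 11.32, 10.85, 11.26, 10.58, 12.87 and 11.50 in set 1 and at 12.97 in lymphoma D163, against medians of 9.90 and 10.56 in the others. Lymphomas D88 and D163 were the highest members for Xbp1, for Jchain, which joins IgA and IgM polymers (13.53 and 13.71), for Tent5c, a poly(A) polymerase of plasma cells (10.45 and 10.64), and for Creld2, a chaperone of the endoplasmic reticulum (11.39 and 12.66). In lymphoma D75 Tent5c was at 4.95, inside the range of the others. Prdm1, which encodes Blimp-1, the plasma cell repressor, was 1.45 higher (adjusted p = 0.000644). Irf4, its activator, and Sdc1, the plasma cell marker CD138, differed by -0.60 (adjusted p = 0.241) and 0.63 (adjusted p = 0.373). With the T cell and macrophage means in the fit, 5 of 13 were higher, beside 6.17% of all genes.

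Igha, the heavy chain of IgA, was at 13.04, 13.46, 12.68, 11.54, 14.12 and 13.61 in set 1, against a median of 9.35 and a highest value of 12.44 in the others. In lymphoma D163 it was at 8.49, inside the range of 7.18 to 13.40 of set 2. The difference was 3.24 (SE 0.885, adjusted p = 0.00411). The probe sets of Ighm, the heavy chain of IgM, did not agree: the brightest differed by -1.35 (adjusted p = 0.019), and the mean over its probe sets by 0.54, so no direction is given for Ighm.

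Genes that BCL6 is known to repress were not low as a group. Of 15 tested, 8 were higher and 2 lower, beside 13.7% of all genes higher and 21.0% lower. The share lower is thus below that of all genes. The median difference was 0.78. The list mean ran from -0.37 to 1.23 in the members and from -0.54 to 1.56 in the others. Id2, an inhibitor of E proteins, was 2.01 higher, Ccnd2, a G1 cyclin, 2.05 higher, and Cdkn1a, the inhibitor p21, 1.48 higher. Cdkn1b, the inhibitor p27, was at 9.25, 8.72, 7.68, 9.04, 8.54 and 8.58 in set 1 and 8.93 in lymphoma D163, and was lower (difference -0.66, adjusted p = 0.000222). Atr, the checkpoint kinase, was lower too (difference -0.47, adjusted p = 0.000842). With the T cell and macrophage means in the fit, none of the 15 was higher and 2 were lower. Over all genes, 6.17% were higher and 6.33% lower in that fit.

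**Figure D3:**
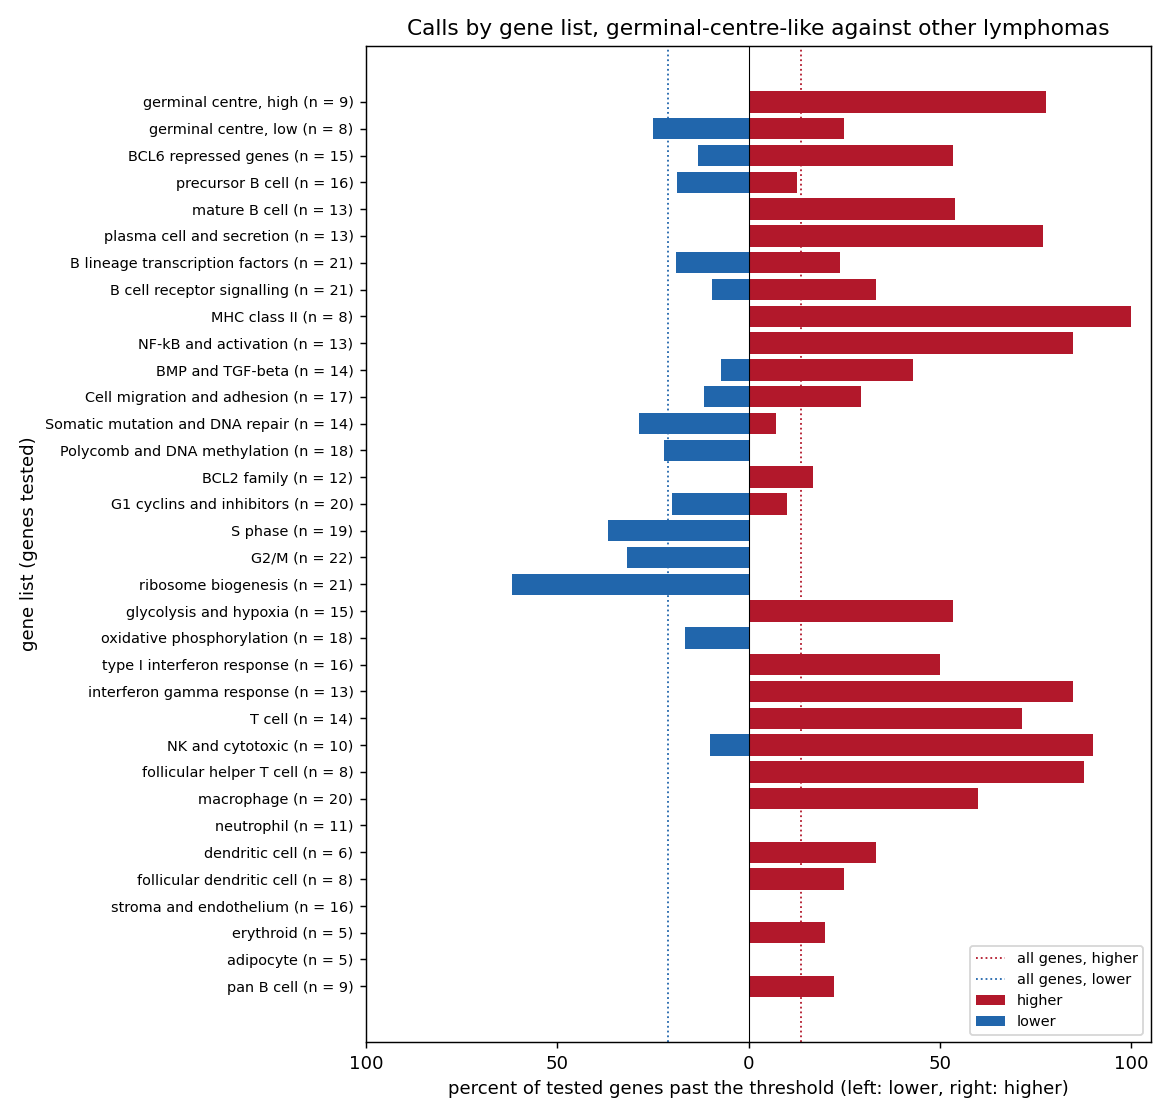
Percent of the tested genes of each list that were higher (right) or lower (left) in the germinal-centre-like lymphomas at an adjusted p under 0.05, with the number tested in brackets. Dotted lines mark the shares over all genes, 13.7% higher and 21.0% lower. MHC class II, NK, follicular helper T cell, NF-kB and interferon gamma lists lie far to the right, and ribosome biogenesis far to the left.

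Sox4 and Cd93, of the precursor B cell list, were among the 15 lowest differences. Sox4, a transcription factor of precursor B cells, was at 4.43, 7.01, 3.02, 7.88, 5.27 and 6.34 in set 1 and 4.92 in lymphoma D163. The medians of the others were 10.41 and 10.64, and 5 others of set 1 were below the highest member. The difference was -4.12 (SE 0.824, adjusted p = 0.000159). The other probe sets of Sox4 were lower too, by smaller differences of -0.43 to -2.97. Cd93, a surface marker of immature B cells, was at 4.60 to 6.83 in the members against medians of 8.42 and 8.83, and differed by -3.13. A dimmer probe set of Cd93 differed by -0.26 (limma adjusted p = 0.145). Myb, a factor of dividing precursors, was lower (difference -1.75, adjusted p = 9.41e-05).

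The precursor list as a whole gave 3 lower and 2 higher of 16 tested, beside 21.0% of all genes lower and 13.7% higher. The recombinase genes Rag1 and Rag2 differed by -2.03 (SE 0.97, adjusted p = 0.0989) and -1.0 (adjusted p = 0.142), and the surrogate light chain genes Vpreb1 and Igll1 by -1.55 and -1.21, none past the threshold. The other lymphomas spread widely for this list, with list means from -1.44 to 2.85, whereas the 7 members lay between -1.10 and -0.71. Tcf4 and Flt3, an E protein and a growth factor receptor that act beyond precursors too, were the higher genes, and only 1 of them was called without D53, D78 or D163. Leaving out the 4 lymphomas with a pan B cell mean under -1 gave 5 lower genes in this list. Once the T cell and macrophage means were in the fit, 1 of 16 was lower and none higher. This share lower is near the 6.33% of all genes in that fit, where 6.17% were higher. Myb (adjusted p = 0.0545) and Sox4 (adjusted p = 0.0549) then no longer passed. With the NK mean added, none of the 16 passed in either direction.

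Other genes among the 15 lowest had varied roles. Ptgr1, a reductase of prostaglandins, and Cnn3, an actin-binding calponin, differed by -3.04 and -3.03, and Thbd, the thrombin receptor thrombomodulin, and Alpl, an alkaline phosphatase, by -2.89 and -2.85. Thbd was at 4.33 to 5.05 in the members of set 1 except lymphoma D78, at 7.21, and at 4.61 in lymphoma D163. Mcoln2, an endolysosomal channel, was at 5.43 to 7.07 in the 6 members of set 1 and 7.73 to 9.73 in the 30 others. In set 2 lymphoma D163, at 8.96, lay inside the range of 8.70 to 10.10 of the others. Pdlim1, a scaffold of the actin cytoskeleton, was at 5.83 to 8.26 in the members except lymphoma D46, which at 10.40 was like the others, whose median was 10.44. The dimmer probe sets of Pdlim1 differed by -0.02 and -0.26, neither past the threshold. The 15 lowest differences also held Tifa, Kcnk1, Pde2a, Eps8, Egfl6, Smyd2 and 1700097N02Rik, from -2.08 to -2.89. Kcnk1 and Egfl6 were below the median of the array set in every member, so they entered the test through the others alone.

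Aff1, a subunit of the super elongation complex, and Mxi1, which pairs with MAX and opposes MYC, were among the 10 genes below all others of their set and are named after their values were seen. Aff1 was at 8.23, 7.71, 6.36, 6.83, 7.20 and 6.95, and at 8.27 in lymphoma D163, while the others began at 8.54 and 9.25 in the 2 sets. Mxi1 was at 6.96 to 7.87 in set 1 and at 8.61 in lymphoma D163, while the others began at 8.28 and 9.40. Their adjusted p were 4.16e-11 and 1.37e-11. Ell2, an elongation factor that joins the same complex as AFF1, was 4.17 higher.

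**Figure D4:**
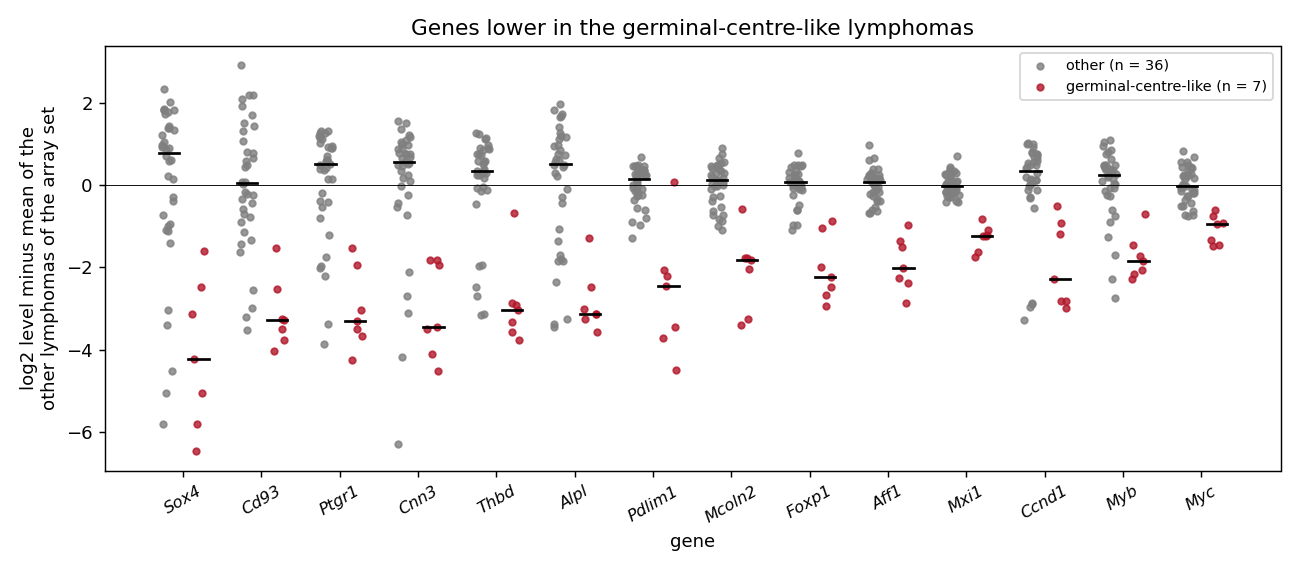
Log2 level of 14 genes in each lymphoma minus the mean of the other lymphomas of the same array set; red points are the 7 germinal-centre-like lymphomas, grey points the 36 others, and bars mark medians. Aff1 and Mxi1 show no overlap within a set, several others of the 36 are as low as the members for Sox4, Cd93 and Cnn3, and lymphoma D46 is at the level of the others for Pdlim1.

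Myc itself was lower in the members. Its log2 level was 9.68, 10.03, 9.71, 9.88, 9.15 and 9.28 in set 1 and 9.90 in lymphoma D163. The others of set 1 ran from 9.87 to 11.44 with a median of 10.60, and 4 of them were below the highest member. Those of set 2 ran from 10.92 to 11.78, all above lymphoma D163. The difference was -1.08 (SE 0.168, adjusted p = 4.12e-06), and -0.69 (adjusted p = 0.0072) with the T cell and macrophage means in the fit. Whether the signal comes from the transgene or from the resident gene was not tested. Mycn, a Myc relative, differed by -0.003 (adjusted p = 0.983).

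Ribosome biogenesis genes, which are well known to be driven by MYC, were lower for 13 of 21 tested and higher for none. Over all genes 21.0% were lower and 13.7% higher. The median difference of the list was -0.39. Ncl, or nucleolin, differed by -0.29 (adjusted p = 0.000131), Fbl, the rRNA methyltransferase fibrillarin, by -0.43, Wdr12, a factor of the large subunit, by -0.67, and Gnl3, or nucleostemin, by -0.53. These differences were small beside those of the B cell genes but held for most of the list. With the T cell and macrophage means in the fit, 1 of the 21 was higher and 1 lower, beside 6.17% and 6.33% of all genes. In these bulk samples fewer tumour cells and less RNA per tumour cell cannot be told apart.

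Cell cycle lists differed by small amounts. Of 19 S phase genes 7 were lower, with a median difference of -0.18, and of 22 genes of G2 and mitosis 7 were lower, with a median of -0.21, beside 21.0% of all genes lower. The G2 and mitosis calls were lost without lymphoma D46 and fell to 1 without lymphoma D88 or without lymphoma D163. The S phase calls fell to 4 without lymphoma D88 and 3 without lymphoma D163. No gene of either list was called with the T cell and macrophage means in the fit, where the medians were 0.01 and 0.04. Mki67, the proliferation antigen, was at 11.09 to 11.98 in the members of set 1 against a median of 11.87 (difference -0.11, adjusted p = 0.516). Among G1 genes, Ccnd1, cyclin D1, differed by -1.94 (adjusted p = 0.0011), Rb1, the retinoblastoma protein, by -0.76, and Cdkn1a was higher. Cdkn2a, the Arf and p16 locus, was at 7.33 to 8.33 in the members of set 1 and 8.32 in lymphoma D163, and spread from 3.97 to 11.46 and from 5.91 to 12.13 in the others of the 2 sets, with a difference of 0.14 (SE 0.953, adjusted p = 0.929).

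Glycolysis and hypoxia genes were higher for 8 of 15 tested, beside 13.7% of all genes, with a median difference of 0.40. Aldoa, an aldolase, was 0.97 higher, Pgk1, a kinase of the pathway, 0.39 higher, and Bnip3, a mitophagy receptor induced in hypoxia, 1.63 higher. Only 2 of the 15 were higher with the T cell and macrophage means in the fit, beside 6.17% of all genes. In that fit Aldoa, at 0.48 (adjusted p = 0.0995), no longer passed. Oxidative phosphorylation genes gave 3 lower of 18, a share below the 21.0% of all genes, with differences from -0.25 to 0.13 over the list. That count fell to 1 without lymphoma D78, and to none in set 1 alone or with the T cell and macrophage means. Polycomb and DNA methylation genes gave 4 lower of 18 and none higher, a share near the 21.0% of all genes: Dnmt3b and Dnmt3a, the de novo methyltransferases, differed by -1.17 and -0.85, and Ezh2, the Polycomb methyltransferase that germinal centre B cells carry at high levels, by -0.38 (adjusted p = 0.0351), a call lost without lymphoma D46, D88 or D163. In the BCL2 family 2 of 12 were higher, Pmaip1, or NOXA, by 1.46 and Bid, a BH3-only protein, by 0.48, and the second was lost without lymphoma D75 or D78. This share is near the 13.7% of all genes higher, and with the T cell and macrophage means in the fit neither gene passed.

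Markers of other cells moved with the group, and their counts stand beside 13.7% of all genes higher and 21.0% lower. The T cell list was higher for 10 of 14 tested genes, and its mean ran from -1.0 to 2.01 in the members (median 1.4) and from -1.35 to 1.18 in the others (median -0.36). Cd3d, a chain of the T cell receptor complex, was at 10.77, 9.62, 6.67, 8.87, 10.55 and 10.98 in set 1 and at 11.21 in lymphoma D163, against medians of 7.24 and 7.92. The number of T cell genes called fell to 6 without lymphoma D46, D88 or D163. The follicular helper list was higher for 7 of 8, with Icos, a costimulatory receptor, 1.55 higher and Pdcd1, or PD-1, at 9.33 in lymphoma D163 but 4.04 and 4.07 in lymphomas D75 and D78. Cd200 and Cxcr5 of that list are also carried by B cells. The NK and cytotoxic list was higher for 9 of 10, with Gzma, granzyme A, 2.16 higher and Eomes, a T-box factor of cytotoxic cells, 1.65 higher. Prf1, or perforin, the pore protein of these cells, passed as lower (difference -0.21, adjusted p = 0.00897), and entered the test through the others alone. It was not called in set 1 alone.

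The macrophage list was higher for 12 of 20 and lower for none, with means from -0.27 to 2.33 in the members and from -1.21 to 3.26 in the others. Csf1r, the growth factor receptor of macrophages, was at 8.43 to 11.28 in the members of set 1 against a median of 8.24. Only 4 macrophage genes were called without lymphoma D163 and 7 without lymphoma D78. Interferon gamma response genes were higher for 11 of 13, with the immunoproteasome subunit Psmb8 0.86 higher (adjusted p = 4.55e-07). Of these 13, 2 were higher and 1 lower with the T cell and macrophage means in the fit, beside 6.17% and 6.33% of all genes. The interferon gamma mean ran from -0.47 to 1.93 in the members and from -0.80 to 1.94 in the others. Type I interferon genes were higher for 8 of 16, a count that fell to 2 without lymphoma D46 and to 3 without lymphoma D78 or D163, and to none with the T cell and macrophage means in the fit. The neutrophil list (11 tested), the stroma and endothelium list (16) and the adipocyte list (5) gave no call. Beside 13.7% of all genes higher, dendritic cell genes gave 2 of 6 higher, or 1 without D53, D78 or D163. Follicular dendritic cell genes gave 2 of 8, Cr2 and Srgn, a proteoglycan of many blood cells. Erythroid genes gave 1 of 5, Car2, a carbonic anhydrase. Without the genes that had entered the test through the members alone, the counts higher were 5 of 6 for follicular helper T cells, 9 of 11 for interferon gamma, 9 of 12 for plasma cells, 10 of 12 for NF-kB and 5 of 19 for B cell receptor signalling. Among genes above the median of a set in both groups, 1 of 5 follicular dendritic cell genes was higher. What part these cells have in the B cell results was not tested. The fit with the T cell and macrophage means uses list means that differ between the groups. In these bulk samples it cannot tell other cells and tumour cells apart.

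**Figure D5:**
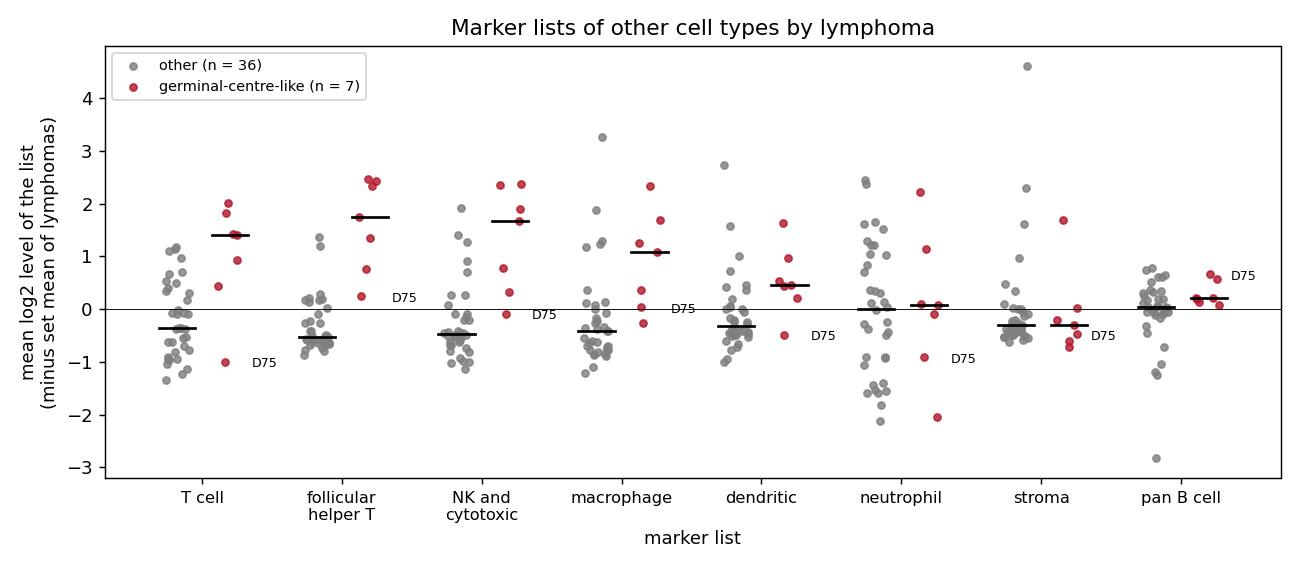
Mean log2 level of the marker lists in each lymphoma, minus the mean of its array set; red points are the 7 germinal-centre-like lymphomas, grey points the 36 others, bars mark medians, and the height of lymphoma D75 is labelled. The T cell mean of lymphoma D75 is -1.0, while the other members lie between 0.43 and 2.01. For the neutrophil list the members lie within the range of the others. Stroma means overlap in part, at -0.72 to 1.69 in the members and -0.63 to 4.61 in the others.

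Lymphoma D75 had the lowest T cell mean of the members and a macrophage mean of 0.03. Basp1, Rnf128, Cr2 and Fas, as genes without overlap, are high in every member. In lymphoma D75 Basp1 was at 11.69, Rnf128 at 9.92, Cr2 at 9.99, Smad1 at 10.89, Cxcr5 at 8.74, Cd40 at 8.03 and Fas at 6.67. Its Cd28 was at 3.99, Icos at 5.32, Pdcd1 at 4.04 and Cd83 at 5.10, all within the range of the others or below it. Over the 469 genes at least 2-fold higher, lymphoma D75 was the lowest of the 7 for 181, and lymphoma D88 for 17. Over the genes at least 2-fold lower, lymphoma D46 was the highest of the 7 for 55, and it also had the lowest 4-gene mean.

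With the means of the T cell and macrophage lists as covariates, 533 genes (6.17%) passed as higher and 547 (6.33%) as lower. Of these, 460 and 419 also passed without the covariates. Basp1 then differed by 3.86 (adjusted p = 1.56e-08), Rnf128 by 4.46 (adjusted p = 2.51e-13), Cr2 by 4.24 (adjusted p = 1.29e-14), Fas by 1.99 and Foxp1 by -1.92. Jchain and Cd83, at 2.05 (adjusted p = 0.0619) and 1.27 (adjusted p = 0.0871), and Sox4, at -2.65 (adjusted p = 0.0549), no longer passed. Of the germinal centre list 6 of 9 genes were then higher, and of the mature B cell list 4 of 13. The counts were 5 of 21 for B cell receptor signalling, 3 of 14 for BMP and TGF-beta genes and 5 of 8 for follicular helper T cells. For the NK list the count was 1 of 10. These counts include genes that had entered the test through the members alone, Fas and Cr2 among them, and were not made without such genes.

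Within the other 36 lymphomas, which the rule left out of the group, the 4-gene mean still varied, and a slope on it was fitted with the array set in the model. This fit shares the other lymphomas with the comparison above, so only each gene's own values are set beside each other. Its predictor is the mean of the 4 selection genes, so its p-values are no independent test of the grouping. In it 912 genes (10.6%) rose with the 4-gene mean and 1177 (13.6%) fell. Without the 4 lymphomas of low pan B cell mean 479 rose and 444 fell, and without the array set in the fit 518 rose and 186 fell. Basp1 rose by 1.56 per log2 unit (adjusted p = 0.00245), Ell2 by 2.60 (adjusted p = 6.77e-05), Cd200 by 1.4 and Fas by 0.36 (adjusted p = 0.00415), and Sox4 fell by 2.65 (adjusted p = 0.000488) and Myc by 0.45 (adjusted p = 0.00498). The slopes of Cr2, at -0.03 (adjusted p = 0.899), Smagp, at 0.07 (adjusted p = 0.881), Hmces, at 0.13 (adjusted p = 0.788), Rnf128, at 0.42 (adjusted p = 0.141), Foxp1, at -0.16 (adjusted p = 0.404), and Mcoln2, at -0.01 (adjusted p = 0.965), did not pass. With the T cell and macrophage means in this fit, 4 genes rose and 1 fell, against 912 and 1177 without them.

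The spleen array of set 2 gives levels in a lymphoid organ of an Eµ-myc mouse, under a title that also reads lymphoma, from 1 sample and without a test. Basp1 was at 10.60 there, between the others of set 2 (highest 8.74) and lymphoma D163 (12.29). Cr2, at 4.93, and Tbx21, at 4.90, were at the level of the other lymphomas, Bcl6 was at 7.18, and Gcsam, at 5.39, was above the other lymphomas of its set and below lymphoma D163 (9.71). Jchain was at 13.23 there and Igha at 14.17, beside 13.71 and 8.49 in lymphoma D163. Xist, the RNA of the inactive X chromosome, was at 11.99 to 12.70 in lymphomas D78, D88 and D163 and at 6.29 to 6.94 in the other 4 members, where the Y-linked gene Eif2s3y was high, and neither gene passed the test between the groups.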

How the data were processed

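Expression was measured on 44 arrays, 43 of lymphomas and 1 of spleen. The authors deposited log2 values per probe set, made with RMA in the affy package per the submitters' processing notes (versions are not given in the sources used here); RMA removes background, scales arrays to one distribution and summarises probes, which compresses differences of dim genes. The values ran from 2.36 to 14.93, with none missing. No depth applies to arrays, and their number limits the precision. No 2 arrays were identical, and the highest correlation between any pair was 0.9909.

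Of 22690 probe sets, 64 were controls, 20380 had 1 gene symbol in the platform annotation, 691 had several and 1555 none. Entrez numbers of 20351 were found in the RefSeq table of GRCm38.p6. The probe set with the highest mean over the lymphomas stood for each of 12393 genes. A gene was tested if at least 1 lymphoma exceeded the median of its array set, which left 8637 genes besides the 4 selection genes. Of these, 158 passed through the germinal-centre-like lymphomas alone and 824 through the others alone. For the fit with only the array set as a covariate, list counts without the former are given where they differ. List counts with other-cell means in the fit include them.

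Groups were compared with limma 3.58.1 in R 4.3.3 (lmFit, eBayes with an intensity trend, two-sided, 40 residual degrees of freedom), with the array set as a covariate and Benjamini-Hochberg adjustment over all 8637 genes at 0.05. List means used values centred on the lymphomas of the set. The script was tested on simulated data.

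The members, the gene lists and the tests were chosen with earlier results of these data known. The genes named are the 20 largest positive and 15 largest negative differences, of at least 1 and past the threshold, up to 4 genes per list with the largest limma statistic, 6 single genes fixed by name and the selection genes; further members of a list are named with their calls, and others are said to be named after their values were seen. Alternatives covered the array set, filter, probe set choice, scaling, variance model, array weights, RNA quality, sex, other-cell means, the lymphomas with low B cell genes, the 4-gene mean as a predictor and leaving out each member. The spleen array entered no test. Figures used Python 3.11.15 and matplotlib 3.10.9.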

Additional observations from a re-analysis of the deposited data

Results flagged for a closer look

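Among 174 named genes, the highest or lowest of the 7 germinal-centre-like lymphomas stood apart from the other 6 by Dixon's criterion for 12, where chance flags about 1 in 20. Values are log2 levels minus the mean of the other lymphomas of the same set. Cd83 and Cd28 stood low in lymphoma D75, at -0.87 and -0.68, while the nearest members were at 3.45 and 1.35; lymphoma D75 also had the lowest T cell mean. Igha was at -1.80 in lymphoma D163, where the nearest member was at 2.57. In lymphoma D163 also, 1700097N02Rik was at -4.48 and Clec10a, a lectin of macrophages and dendritic cells, at 3.24. In lymphoma D78 Madcam1, an addressin of vessels and follicular dendritic cells, was at 3.21, Sparc, a matrix protein, at 2.44, Thbd at -0.69, Sdhc at -0.76 and Tox, a factor of T cells named after its values were seen, at 0.03. In lymphoma D46 Gnl3 was at -0.89 and Mef2b, a selection gene, at 2.75.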

How the results depend on the processing

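Without the array set in the fit, 894 genes were lower in the germinal-centre-like lymphomas, and within the other 36 lymphomas 518 rose and 186 fell with the 4-gene mean. With the T cell and macrophage means as covariates, 533 were higher and 547 lower, and 4 rose and 1 fell. With the NK mean added, an alternative chosen after seeing the data, these numbers were 411, 398, 4 and 1. Without the 4 lymphomas of low pan B cell mean, 479 rose and 444 fell. The cause of these shifts was not tested. The other alternatives kept the counts within 1.5 times of those reported; leaving out each member gave 940 to 1209 higher and 1275 to 1891 lower. Of 141 named genes past the threshold, 78 kept their call with the T cell and macrophage means, 125 without the array set and 127 in set 1 alone. Turned in sign with the T cell and macrophage means were Nusap1 (0.019) and Irf7 (-0.043), and with the NK mean added Ung (0.013), Ccna2 (0.006), Nusap1 (0.025), Irf7 (-0.235), Nkg7 (-0.017) and Gzmk (-0.167), none past the threshold. The mean of all probe sets turned Ighm (0.536). No paired analysis was possible because title numbers name single lymphomas and no number is shared between the groups. One member lies in set 2, and a dim gene near its array median is limited by signal over background.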
